A study of Homo sapiens with 26 samples.

Results

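The cells described here are the extremes of 25 single human cells ranked by how unevenly a DNA adenine methyltransferase, Dam, marked their chromosomes. For each cell, the mean signal over the 2698 used bins of chromosomes 16, 17, 19 and 20 was divided by the mean over the 5335 used bins of chromosomes 4, 5, 13 and 18, and the log2 of that ratio is called the contrast. The first set of chromosomes is known as gene-dense and the second as gene-poor. Members were chosen by this measured contrast: group A is the 8 cells with the highest value and group B the 8 with the lowest, out of 26 cells. Cell 22 was left out of the ranking by the rule, and 9 cells fell in neither group. All comparisons below use the 13 autosomes that played no part in the ranking, called the held-out autosomes: 1, 2, 3, 6, 7, 10, 11, 12, 14, 15, 21 and the derivatives 9:22 and 22:9.

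Every cell came from clone 5-8 of KBM7, a human leukaemia line with a nearly haploid genome that carries the translocation between chromosomes 9 and 22, and every cell is labelled 1N and Dam alone. Dam activity was induced in all of them with 0.5 nM Shield1 for 15 h, and small cells positive for both Fucci markers of the cell cycle were sorted. Lamin B1 appears in the series title, but each sample label gives unfused Dam, and the labels were followed. Groups A and B therefore share clone, treatment and sort, and differ by label in nothing.

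Dam is a bacterial enzyme that methylates adenine in the sequence GATC. Without a fusion partner it marks DNA it can reach, so that open, gene-rich chromatin gains more methylation than compact chromatin near the nuclear lamina. A methylation-dependent digestion and PCR then recover the marked fragments of each cell.

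The contrast ran from 0.35 in cell 23 to 1.28 in cell 13. Group A held, from the highest, cells 13, 24, 11, 3, 8, 12, 5 and 9, and its mean was 1.09 ± 0.14 (SD, n = 8), a 2.13-fold ratio between the chromosome classes. Group B held cells 7, 16, 17, 21, 20, 26, 2 and 23, with a mean of 0.53 ± 0.11 (SD, n = 8), a 1.44-fold ratio. These values chose the groups and are given as a description. Cell 9 was the last inside group A at 0.92, and cell 15 stood just outside at 0.87. Cell 7 was the last inside group B at 0.64, and cell 10 stood just outside at 0.68. The counting error (SE) of the contrast was between 0.013 and 0.038 in the ranked cells, so neighbours at both limits differed by amounts that are not large against it.

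Chromosome 19, the most gene-dense human chromosome, differed most between the groups among the 8 chromosomes of the rule. Relative to the held-out autosomes its level was 2.18 ± 0.531 in group A and 1.42 ± 0.173 in group B. The highest cell reached 3.16, in group A. Chromosome 17 was at 1.57 ± 0.147 against 1.35 ± 0.176, chromosome 16 at 1.24 ± 0.228 against 1.08 ± 0.0969, and chromosome 20 at 1.18 ± 0.278 against 1.08 ± 0.22. On the gene-poor side, chromosome 4 was at 0.646 ± 0.100 in group A and 0.796 ± 0.179 in group B. Chromosome 5 was at 0.799 ± 0.103 against 0.944 ± 0.139. Chromosomes 13 and 18 also had lower means in group A, by 0.0949 and 0.108. The rule used these chromosomes, so their differences are no result.

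Depth moved with the groups. The whole counts recovered from the ratios totalled 32088 to 95020 per cell in group A (median 46106.5) and 20182 to 65253 in group B (median 32912). The cells of neither group were deeper than both, with a median of 81331. All 3 ranked cells under 25000 counts, cells 21, 23 and 26, belong to group B. Counts on the held-out autosomes were therefore thinned at random to 10000 in every cell, and values are means over 20 draws. Cells of 1 clone are not replicate cultures and the groups were cut from a measured value, so no p-value is given; each SD is the spread between the 8 cells of a group.

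The first question was whether cells with a high contrast also marked the held-out autosomes more unevenly. On average group A stood above group B, by less than the spread between cells, and the groups overlapped. Group A did not stand clear of the cells of neither group. The 9 cells of neither group served to make a reference map of 1688 windows of 1 Mb, and the windows were split by their level there into 5 classes of 337 or 338, class 1 being the lowest. Steepness is the log2 of a cell's signal in class 5 over that in class 1. It was 2.16 ± 0.38 (SD, n = 8) in group A, a 4.46-fold ratio, and 1.88 ± 0.23 in group B, a 3.68-fold ratio. The difference of 0.28 is a 1.21-fold change of the ratio and amounts to 0.879 times the pooled SD. The difference exceeded the pooled SD in 2 of 16 omissions of a single cell, without cell 5 (0.33 against 0.31) and without cell 26 (0.34 against 0.29). It also did so in 3 of 10 other alternatives. These were groups of 5 (0.37 against 0.35), reference windows of 2 Mb (0.291 against 0.286) and no cells under 25000 counts (0.38 against 0.28). It was smallest without cell 13, at 0.176 against 0.253.

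Group A ran from 1.76 in cell 5 to 2.86 in cell 13, with a median of 2.01. Group B ran from 1.64 in cell 17 to 2.31 in cell 26, with a median of 1.83. Cells 13, 8 and 11 of group A, at 2.86, 2.53 and 2.33, lay above all of group B, and cells 17, 2 and 21 of group B lay below all of group A. The remaining cells of both groups shared one range. Cell 24, second by contrast at 1.27, had a steepness of only 1.98, below that of cell 23 at 2.13, which had the lowest contrast of all. Cell 10, in neither group, was second in steepness at 2.59 with a contrast of 0.68. For the cells of neither group, each was set against a map made without it, and they averaged 2.09 ± 0.24 (n = 9). Their median of 2.07 was above the group A median. Of the 8 cells in each group, 4 in group A and 2 in group B exceeded the median of all 25.

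**Figure D1:**
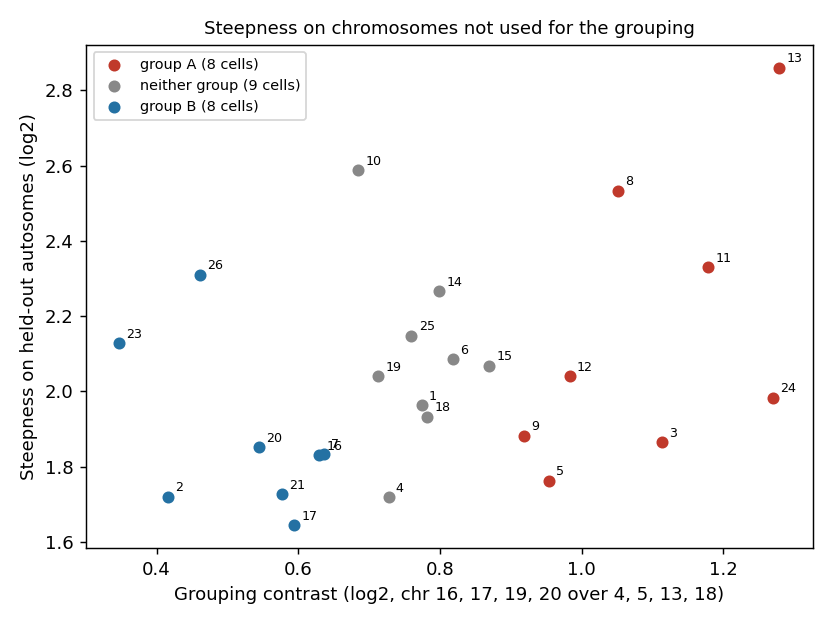
Contrast that defined the groups (x axis, log2) against steepness on the held-out autosomes (y axis, log2, counts thinned), 1 point per cell, labelled with the cell's number. Group A spans 1.76 to 2.86 and group B 1.64 to 2.31 on the y axis, and the groups overlap.

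Across the 25 ranked cells, contrast and steepness had a Pearson r of 0.386 and a Spearman rho of 0.359, given as a description. Without the 2 cells farthest from the median contrast, r was 0.249. Every point shares with the others the expectation per bin and the clone. The difference between the groups rests in part on cell 13: without it, the difference in steepness was 0.18. Between log2 of the total count and steepness r was -0.216 over the 25 cells, and the part of depth in the difference was not tested. Matching by total, with 7 pairs of a group A and a group B cell within 1.5-fold of each other and no thinning, gave a mean difference of 0.31 ± 0.35 (SD, n = 7 pairs). Cell 5 of group A and cell 21 of group B, at 1.75 and 1.73 without thinning, had no partner. The group A cell was steeper in 6 of 7 pairs, by only 0.028 for cells 3 and 20, and was also the deeper cell in all 7. Cells 8 and 17 were farthest apart, at 2.55 and 1.65, whereas cell 24 at 1.99 was below its partner, cell 23, at 2.14.

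The widest gap between the groups was in class 5, the most strongly marked windows. Relative to the mean of the held-out autosomes, the level there was 1.86 ± 0.144 in group A and 1.65 ± 0.0981 in group B, and 6 of the 8 group B cells lay below all of group A. Cells of neither group were at 1.82 ± 0.127, nearer to group A. Class 1 was at 0.422 ± 0.0755 in group A and 0.451 ± 0.0623 in group B, a difference smaller than either SD. In class 2 the levels were 0.64 ± 0.0773 and 0.699 ± 0.0535, and in class 3 they were 0.895 ± 0.0378 and 0.955 ± 0.057. In class 3, 5 of 8 group A cells were below all of group B. Class 4 was at 1.23 ± 0.0535 and 1.27 ± 0.0745.

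**Figure D2:**
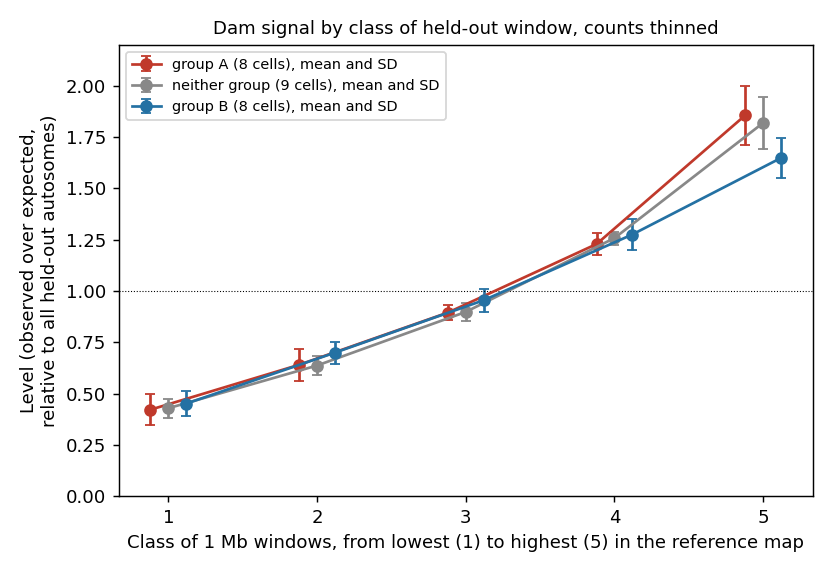
Level in each of 5 classes of 1 Mb windows (x axis, ordered by the reference map) relative to all held-out autosomes (y axis). Points are means and bars SDs over the cells of a group; in class 5 group A is at 1.86 and group B at 1.65.

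Removing the chromosome means changed little. With the 5 classes defined inside each held-out chromosome and each cell scaled to its own level on that chromosome, steepness was 2.12 ± 0.38 in group A and 1.85 ± 0.23 in group B, a difference of 0.275. Taken chromosome by chromosome, the mean was higher in group A on 12 of 13 held-out autosomes, and the groups overlapped on all 13. The gap was widest on chromosome 21, at 2.12 ± 0.47 against 1.504 ± 0.25, and on chromosome 1, at 2.29 ± 0.38 against 1.78 ± 0.22. It was narrow on chromosome 10, at 1.80 ± 0.42 against 1.66 ± 0.31. The derivative 22:9, with 133 used bins, ran the other way, at 0.93 ± 0.48 against 1.04 ± 0.55. The 13 chromosomes come from the same cells and are not independent of each other.

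A cell that was steep on some held-out autosomes was also steep on the others. On chromosomes 1, 3, 7, 11, 15, 21 and 9:22, cell 13 had a within-chromosome steepness of 2.89, and on chromosomes 2, 6, 10, 12, 14 and 22:9 it had 2.80. Cell 17, the flattest cell, had 1.57 and 1.56. Across the 25 cells, the values on these 2 sets of chromosomes had an r of 0.952 and a rho of 0.942, and r was 0.923 without the 2 cells farthest from the median. The points share library and depth, and no p is given. The same quantity inside the 8 chromosomes of the rule, computed from all counts, had an r of 0.929 with that on the held-out autosomes. Its own r with the contrast was 0.252, and 0.0881 without the 2 farthest cells. It was 1.84 ± 0.30 in group A, 1.68 ± 0.30 in group B and 1.85 ± 0.20 in the cells of neither group. Steepness thus went together between sets of chromosomes in the same cells.

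**Figure D3:**
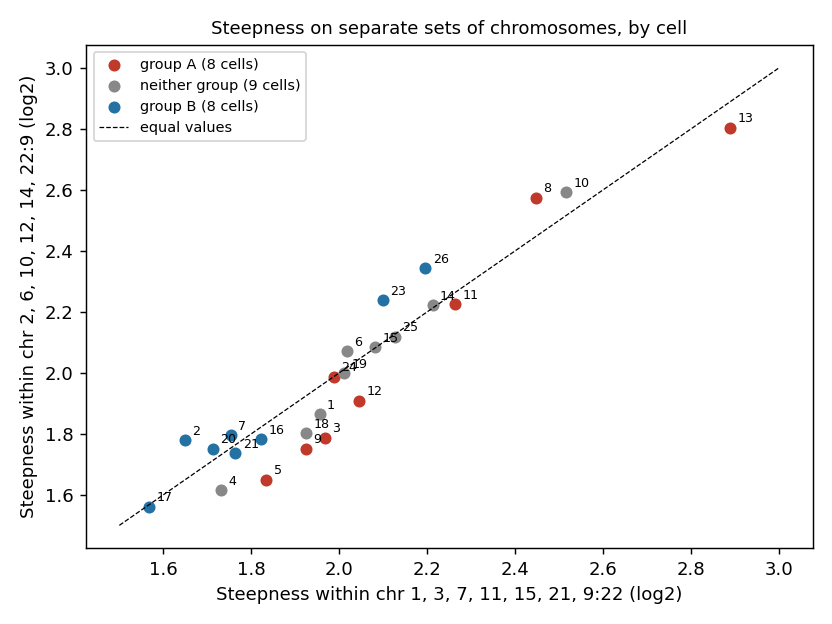
Within-chromosome steepness (log2) of each cell on 7 held-out autosomes (x axis) and on the other 6 (y axis), with a dashed line of equal values. Cells lie close to the line from cell 17 (1.57 and 1.56) to cell 13 (2.89 and 2.80), and colours mark the groups.

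The next question was whether whole held-out chromosomes stood at other levels in the groups. All 13 overlapped, and with all 8 cells in each group no log2 difference exceeded the pooled SD of its chromosome. On chromosome 10 the log2 difference passed it without cell 7 (-0.286 against an SD of 0.205), cell 23 (-0.25 against 0.24) or cell 5 (-0.244 against 0.237), and with groups of 5 (-0.35 against 0.24). Chromosome 14 did so without cell 3 (0.16 against 0.13) or cell 7 (0.15 against 0.14), and chromosome 7 with groups of 5 (-0.259 against 0.254). The largest was on chromosome 10, at 0.963 ± 0.101 in group A and 1.13 ± 0.233 in group B, relative to the other held-out autosomes. Of group B, 4 of 8 cells were above all of group A there, with cell 20 highest at 1.51. Cells 7 and 23 of group B were low on it, at 0.789 and 0.918. Chromosome 7 was also lower in group A, at 0.836 ± 0.121 against 0.931 ± 0.128. Its log2 difference was -0.159 with all cells and -0.0405 without cells under 25000 counts, which are all in group B. Chromosome 12 was at 1.16 ± 0.112 against 1.06 ± 0.166, with 4 of 8 group B cells below all of group A. Chromosome 14 was at 0.959 ± 0.113 against 0.892 ± 0.107.

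The groups also overlapped on the other chromosomes. Chromosome 1 was at 1.10 ± 0.143 in group A and 1.08 ± 0.131 in group B, and chromosome 11 at 0.978 ± 0.0959 and 0.97 ± 0.129. On chromosomes 1, 2, 3, 6, 11, 15 and 9:22, 7 of the 13, the mean log2 levels differed by no more than 0.05. The derivative 22:9 was high in both groups, at 1.42 ± 0.312 and 1.29 ± 0.241. No arm of chromosomes 1, 2, 3, 6, 7, 10, 11 or 12 differed by 1.2-fold. The nearest was the long arm of chromosome 10, at 0.932 ± 0.0857 in group A and 1.11 ± 0.235 in group B. The short arm of chromosome 6, which holds the major histocompatibility complex, was at 1.46 ± 0.427 and 1.25 ± 0.145, with the highest group A cell at 2.48.

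Single cells departed from their group on single chromosomes. Cell 3 of group A had chromosome 6 at 2.04, where the next group A cell was at 1.12, and chromosome 9:22 at 1.74, while its chromosome 2 was at 0.63 and its chromosome 7 at 0.587. Cell 13 had chromosome 21 at 1.59, and cell 8 had 22:9 at 2.03. In group B, cell 7 had 9:22 at 1.68 and cell 21 had chromosome 3 at 1.39. The SD of log2 levels over the 13 chromosomes of a cell was 0.287 ± 0.128 in group A and 0.286 ± 0.0737 in group B, so that group A cells were not more uneven between held-out chromosomes. It was largest in cell 3, at 0.558, and smallest in cell 5, at 0.16, and both are in group A.

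**Figure D4:**
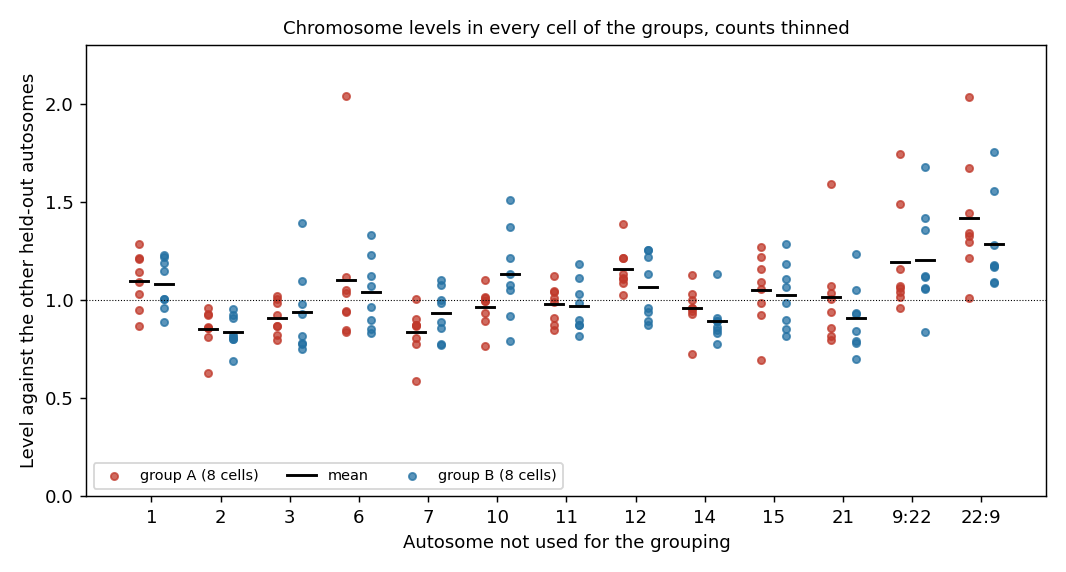
Level of each held-out autosome (x axis) in each cell of group A and group B, relative to the other held-out autosomes (y axis); black lines are means. The groups overlap on all 13, and cell 3 stands apart on chromosome 6 at 2.04.

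At the scale of 5 Mb, few windows differed by much. Of 340 windows, with a median of 27.3 thinned counts per window and cell, none had a group A mean over 1.5 times that of group B (0% called). The reverse held for 2 (0.588% called). In no window were all 8 cells of one group above all 8 of the other (0% called in either direction). The log2 of A over B ranged from -0.63 to 0.48 with an SD over windows of 0.21. Without thinning the counts of windows were the same, 0 and 2 past 1.5-fold and 0 without overlap. Windows of 1 Mb passed 1.5-fold more often, 57 of 1688 in favour of group A and 102 in favour of group B, with no separation of the groups in any.

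The direction of these small differences followed the level of the window in the 9 cells of neither group. The same cells made the map behind steepness, and the held-out autosomes are the same. The pattern therefore restates the difference in steepness with larger windows and is not a separate result. Among the 68 windows lowest in those cells, 12 had a higher mean in group A, and the median log2 of A over B was -0.13. Among the 68 highest, 55 were higher in group A, with a median of 0.14. The classes in between gave 21, 27 and 38 of 68. Over all 340 windows, 153 were higher in group A. The Spearman rho between window level and log2 of A over B was 0.488 across windows, which are not independent and share the same cells.

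**Figure D5:**
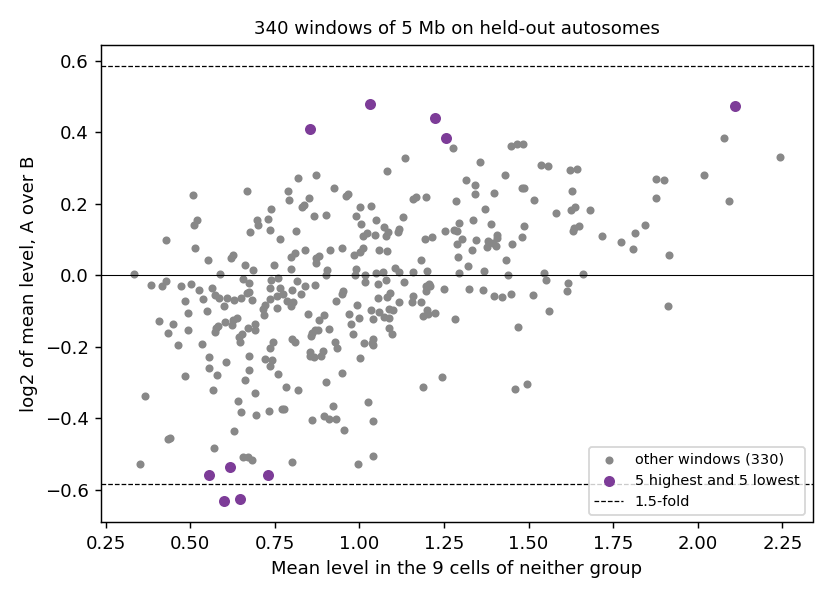
Mean level of 340 windows of 5 Mb in the 9 cells of neither group (x axis) against the log2 of group A over group B (y axis), with dashed lines at 1.5-fold. The 5 highest and 5 lowest windows are marked, and 2 windows lie past the lower line.

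The windows with the highest and lowest ratios are given as the ends of a ranked list. Positions are hg19, and genes in them were not assigned, because no annotation of that build was used here. The highest ratio was on chromosome 15 at 30000001 to 35000000, with 1.03 ± 0.29 in group A and 0.738 ± 0.248 in group B. Chromosome 6 at 30000001 to 35000000 was strongly marked in both groups, at 2.47 ± 0.638 and 1.78 ± 0.367. Cells 3, 13 and 11 of group A, at 3.61, 2.98 and 2.78, were above all of group B there. The highest cell of all was cell 10, in neither group, at 4.66, and the lowest was cell 7 of group B, at 1.29. The end of chromosome 21, at 45000001 to 48129895, was at 1.51 ± 0.252 and 1.11 ± 0.228. All 8 cells of group A lay above the group B median there, as they did outside the list on chromosome 1 at 25000001 to 30000000. Chromosome 15 at 20000001 to 25000000 (1.06 ± 0.151 against 0.799 ± 0.223) and chromosome 6 at 5000001 to 10000000 (1.46 ± 0.511 against 1.12 ± 0.297) completed the 5 highest. The former held only 7.59 thinned counts per cell. In the latter, cell 3 of group A was at 2.69 and the next group A cell, cell 12, at 1.44. Cell 3 had chromosome 6 as a whole at 2.04.

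The 5 lowest ratios were all in windows marked below the average of the held-out autosomes in the cells of neither group. Chromosome 7 at 115000001 to 120000000 was at 0.494 ± 0.0909 in group A and 0.764 ± 0.216 in group B, and 6 of 8 group A cells were below all of group B. Its group B values reached 1.15 in cell 23 and 1.05 in cell 21, which are among the cells of lowest depth. Cells 23 and 21 were also the highest of group B in the window before it, at 1.77 and 1.49. Chromosome 1 at 70000001 to 75000000 was at 0.439 ± 0.0604 and 0.678 ± 0.22. Group A was narrow there, from 0.366 to 0.554, whereas group B spread from 0.296 to 1.04. Adjacent windows on chromosome 7 (110000001 to 115000000, 0.735 ± 0.205 against 1.08 ± 0.368) and chromosome 1 (75000001 to 80000000, 0.576 ± 0.105 against 0.834 ± 0.194) followed, as did chromosome 7 at 10000001 to 15000000 (0.523 ± 0.0645 against 0.77 ± 0.231). In each of these 5 windows all 8 group A cells lay below the group B median. The windows were picked by their ratio, and others showed the same, such as chromosome 1 at 110000001 to 115000000 and chromosome 3 at 100000001 to 105000000. Chromosome 3 at 1 to 5000000, also outside the list, had 6 of 8 group A cells below all of group B. The share of such windows among all 340 was not counted, so these counts do not set the named windows apart.

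The last comparisons asked how like each other the cells of a group were. Group A cells resembled the reference map more than group B cells. The Spearman correlation of a cell with the map over 1 Mb windows, at 10000 counts, was 0.689 ± 0.0545 in group A and 0.625 ± 0.0431 in group B. Of group A, 6 of 8 cells lay above all of group B; the exceptions were cell 3 at 0.596 and cell 5 at 0.643. Of group B, cells 23 and 21 were lowest at 0.558 and 0.579. Cells of neither group, which had the highest median total of counts, reached 0.715 ± 0.0277 against maps made without them. Without thinning the values were 0.796 ± 0.0551 and 0.704 ± 0.0694. Depth moved with this measure, at an r of 0.459 with log2 of the total count over 25 cells even after thinning, and its part was not tested.

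Pairs of cells gave the same order of the groups. The mean correlation over 1 Mb windows was 0.4996 for the 28 pairs within group A, 0.415 for the 28 pairs within group B and 0.456 for the 64 pairs between the groups. Pairs within group B ranged from 0.339 to 0.477 and those within group A from 0.393 to 0.586. Group B cells thus did not resemble one another more than they resembled group A cells. The 36 pairs within the cells of neither group averaged 0.532. Pairs of those cells with group A averaged 0.513, above pairs within group A, and pairs with group B averaged 0.464. Pairs share cells and are not independent.

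The fine structure of the signal was also compared. At equal counts, 37.2% ± 2.15 of the held-out bins of 100 kb held a count in group A and 36.4% ± 2.86 in group B. Before thinning the shares were 64.0% ± 12.4 and 53.6% ± 12.9. Runs of adjacent bins with a count averaged 1.83 ± 0.040 bins in group A and 1.76 ± 0.0445 in group B. Of group A, 6 of 8 cells were above all of group B, and the difference was 1.55 pooled SDs. The means of the cells of neither group lay above both groups, at runs of 1.87 ± 0.0358 bins and a share of 38.8% ± 2.25 at equal counts. Divided by the run length that the share of bins alone gives, the values were 1.15 ± 0.0367 in group A and 1.13 ± 0.023 in group B. The cells of neither group were at 1.15 ± 0.0305. The difference of 0.027 between groups A and B was 0.052 without thinning (pooled SD 0.0284) and 0.0488 in matched pairs (pooled SD 0.0285). The matched pairs were not thinned either, and group A was the deeper cell in all 7. The SD of 1 Mb window levels beyond counting error was 0.604 ± 0.101 and 0.568 ± 0.0998, relative to a mean of 1. That difference of 0.036 was 0.0109 without cell 13 and 0.1000 without cells under 25000 counts (pooled SD 0.0741). The terminal 5 Mb of held-out autosomes over their interiors gave a log2 ratio of 0.05 ± 0.081 in group A and -0.00096 ± 0.072 in group B. Cells 8, 12 and 11 of group A, at 0.21, 0.12 and 0.09, were above all of group B.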

How the data were processed

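Deposited values are a linear ratio of observed over expected signal per 100 kb bin and cell, made by the authors; the reading rests on the file's name and on cell means near 1. Cutadapt and Bowtie2 2.1.0 and genome build hg19 are named per the submitters' processing notes; the counting of reads and the making of the expectation are not given in the labels or headers. The table has 30376 bins; those without values (3792) or at 0 in every cell (253) were dropped, leaving 26331, of which 16825 lie on held-out autosomes. The whole numbers behind the ratios were recovered per bin (largest distance from a whole number 2.42e-13, tolerance 0.001), with totals from 20182 to 178941 per ranked cell and 13253 to 118157 on held-out autosomes. Levels are summed counts over summed expectation. Windows needed 50% of their bins. Intervals and SDs cover neither PCR copies nor separate cultures. Chromosome 8 was not analysed here, nor the X chromosome in the groups' comparisons.

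The members, lists and measures were chosen with earlier results of these data known. Regions named are each held-out autosome, arms past 1.2-fold (none) and the 5 highest and 5 lowest windows of 5 Mb. The longest masked stretch divided the arms of a chromosome; the arm values nearest to that limit and on chromosome 6 were chosen after they were seen, as were within-chromosome steepness, the separate sets of chromosomes and 2 alternatives. Procedures were tested on simulated counts. Software was matplotlib 3.10.9, scipy 1.17.1, pandas 2.3.3 and numpy 2.4.6 under Python 3.11.15.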

Additional observations from a re-analysis of the deposited data

Results flagged for a closer look

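Within each group of 8, a cell was listed when its gap to the nearest other cell exceeded 0.526 of the group's range (Dixon's limit). This gave 5 of 42 groups of values, and chance alone flags about 1 in 20 groups. Cell 3 of group A accounts for 3 of them: chromosome 6 at 2.04 (next cell 1.12), chromosome 2 at 0.63 (next 0.809) and a spread of chromosome levels of 0.558 (next 0.343). Levels are relative within a cell, so a raised chromosome lowers the others. Cell 13 of group A had chromosome 21 at 1.59 (next 1.07). Cell 7 of group B had chromosome 14 at 1.13 (next 0.909).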

How the results depend on the processing

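Differences are group A minus group B. The difference in steepness stayed between 0.27 and 0.38 over 10 alternatives and between 0.18 and 0.34 when single cells were left out. That in map correlation stayed between 0.0485 and 0.092. Held-out chromosomes without overlap numbered 0 throughout. Of 336 recomputed chromosome differences, 41 changed sign, each of them within the pooled SD, and 5 others with single cells left out and 2 with groups of 5, on chromosomes 7, 10 and 14, exceeded it. Grouping by summed counts gave the same groups, so its values could not move. The share of bins with counts differed by 0.862 percentage points at equal counts, 10.4 without thinning and 6.06 in matched pairs, also unthinned. Without cells under 25000 counts it differed by -1.01, a setting that leaves 5 cells in group B. Pair similarity (within A minus within B, 0.0842) was 0.139 without thinning. It was also 0.139 with capped bins, a setting that was not thinned either. Windows past 1.5-fold, 2 of 340, numbered 5 in matched pairs, 4 without bins of low expectation, 4 without cells under 25000 counts, 23 with groups of 5, 0 with groups of 12, 159 of 1688 at 1 Mb and 2 to 6 when single cells were left out, being 6 without cell 26, 5 without cell 7 and 4 without each of cells 24, 5, 9, 16 and 20. Windows without overlap, 0 of 340, numbered 7 with groups of 5, 1 in matched pairs and 1 without bins of low expectation. The difference in run excess, 0.027, exceeded its pooled SD in 4 alternatives and without 4 single cells, and that in the SD of window levels was 0.00198 with groups of 12. The causes were not tested. The map measures were not run with groups of 12, which leave 1 cell for the map, nor capping for shares and runs. No paired analysis was possible because both groups come from 1 labelled group and share no replicate numbers; the pairs above were matched by total count alone. Depth limits windows of 5 Mb to a median of 27.3 thinned counts per cell.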

Other observations

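The X chromosome, outside the comparison of autosomes, stood at 0.839 ± 0.108 (SD, n = 8) of the held-out autosomes in group A and 0.853 ± 0.102 in group B, with 4 cells of each group above the median of all 25. The groups differed there by less than either SD.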
